A study of Rattus norvegicus with 8 samples.

Results

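Cytosolic ribosomal protein genes encode the proteins of the small (Rps) and large (Rpl) ribosomal subunits. Members were taken by symbol: Rpl or Rps followed by a digit, Rplp or Rpsa, without the Rps6k kinases, and only through probe sets annotated to a single gene. They came to 48 genes of 13811 named genes, on 56 probe sets. Chip A carried 44 of the genes on 50 probe sets and chip B carried 6 on 6, with 2 genes on both. By symbol 14 of the chip A genes belong to the small subunit and 30 to the large subunit. Among the 48 are 41 ordinary subunit genes and 7 paralogs or pseudogenes (Rps4y2, Rps27l, Rpl3l, Rpl7l1, Rpl27al2, Rpl39l1 and Rps4x-ps1). A further 30 ordinary subunit symbols occurred only on probe sets that list several symbols, and have no value under their own name.

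The samples were rat brain cells of postnatal day 7, sorted by flow cytometry as A2B5/OTMP+ and described by the submitters as perineuronal oligodendrocytes, which lie against neuronal cell bodies. A2B5 is a ganglioside epitope of glial precursors, and OTMP is the other marker of the sort. The series has 8 samples: 4 biological replicates, each measured on chip A and on chip B, which are 2 Affymetrix array types. They shared 100 tested probe sets, of which 0 were member probe sets. There was 1 cell population, no treatment and no control group. The labels do not say how many animals made up a replicate. A p-value here tests a mean ratio against 1, judged by the spread between these samples only, part of which may be technical. Each value is a linear ratio to a reference that no label names. A ratio of 1, or a log2 ratio of 0, means the same signal as in that reference, and a ratio ranks no gene's expression above another's. In bulk RNA, fewer cells of a type and less RNA per cell cannot be told apart.

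A ribosome holds 1 copy of most of these proteins, so the genes are known for being expressed together in all cell types and at high levels. The small subunit reads the mRNA, the large subunit joins amino acids, and the P stalk of the large subunit recruits elongation factors. Many of these mRNAs begin with a 5′ terminal oligopyrimidine (TOP) tract, a C at the transcription start followed by further C and T bases, through which mTOR signalling controls their translation. In the young brain, growing neurons and the glia that will make myelin depend on much protein synthesis.

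RefSeq promoter sequences (GRCr8) were found for 40 of the 48 genes. A C at the annotated start followed by at least 4 bases that are C or T, read on the gene's own strand, was present in 11 of the 40 (27.5%), against 881 of all 33469 promoters (2.63%). A run of at least 8 C or T bases within 30 bases before and 20 bases after the start was present in 26 of 40 (65%), against 6646 promoters (19.9%). The members printed here show the range, each with 10 bases before the annotated start and 20 bases from it. Capitals mark the pyrimidine tract that opens at the start. Rps15 and Rpl34 are low members with a tract, Rpl19 is a middling one, Rps4y2 is the lowest member and has none opening there, and Rpl39 has a tract and a log2 ratio above 0.
Rps15 (chr7:10068096-10068125, minus strand): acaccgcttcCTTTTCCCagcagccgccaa
Rpl34 (chr2:221962264-221962293, minus strand): tccttttcctCTTCCggggacggtgcttag
Rpl19 (chr10:83519054-83519083, plus strand): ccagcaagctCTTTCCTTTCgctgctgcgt
Rps4y2 (chr4:183000903-183000932, plus strand): cagctctcctcactcgcttgtgctctggga
Rpl39 (chrX:121195877-121195906, minus strand): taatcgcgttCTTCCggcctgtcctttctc
On chip A the median log2 ratio was -0.51 over the 10 genes with a tract at the start (-0.83 to 0.17) and -0.42 over the 27 without one (-1.15 to -0.14), so the ranges overlapped widely. A match is a feature of the annotated sequence, and an annotated start that lies off the true one hides a tract.

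Ribosomal protein genes lay below the reference on chip A. Of the 50 member probe sets, 48 had a mean log2 ratio below 0, against 66% of all tested probe sets. In limma 39 of the 50 were below a ratio of 1 (adjusted p under 0.05) and 0 were above it. At an unadjusted p under 0.05, 1 member probe set was above, the Rps24 probe set described below. Over all 15866 tested probe sets 30.1% were lower and 9.21% higher, against 78% of member probe sets lower. Counted by gene, 37 of 44 members (84.1%) had a lower probe set, against 34.7% of all 10411 named chip A genes, and 0 had a higher one, against 9.91%. The ratio was below 1 on all 4 arrays for 44 of 50 member probe sets (88%), against 39.1% of all tested probe sets. The size was modest: member means ran from -1.15 to 0.50 with a median of -0.49 and quartiles of -0.67 and -0.35, beside a median of -0.11 and quartiles of -0.45 and 0.09 for all tested probe sets.

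**Figure D1:**
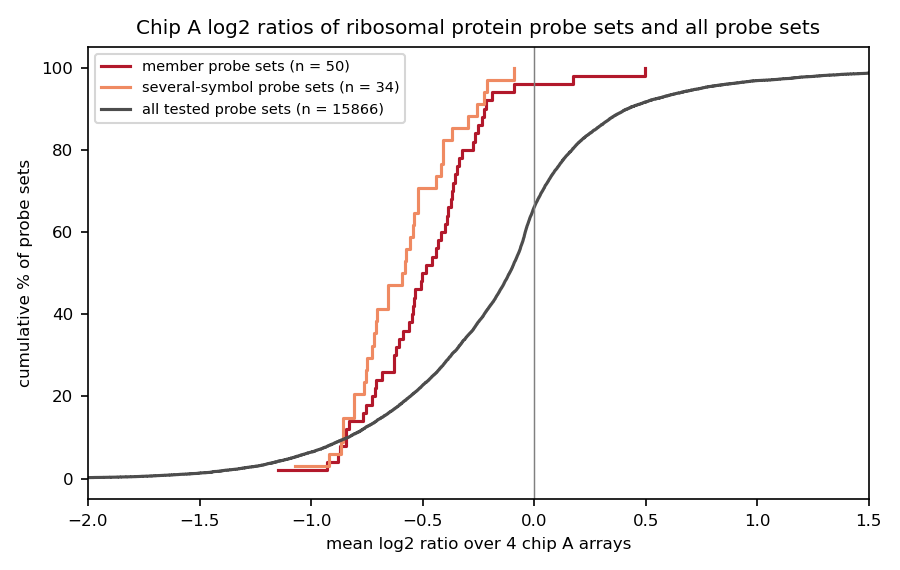
Cumulative percentage of chip A probe sets (vertical axis) by mean log2 ratio over 4 arrays (horizontal axis) for the 50 member probe sets, the 34 probe sets with several symbols that include a ribosomal protein, and all 15866 tested probe sets. The axis is shown from -2 to 1.5 and leaves out the extremes of all probe sets. Over most of their height both ribosomal curves lie left of the curve of all probe sets, which has the longer low tail, with medians of -0.49 and -0.59 against -0.11.

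The array medians themselves lay below a ratio of 1, at a mean log2 value of -0.12 on chip A and -0.10 on chip B. With each chip A array centred on its median, the member median was -0.38, 20 of 44 genes remained lower and 0 were higher, against 27.1% lower and 13.1% higher over all named genes. Leaving out replicate 1 or replicate 4 left 19 and 22 of 44 genes lower, all among the 37, against 28% of all named genes in each of these fits. Leaving out replicate 2 or 3 left 31 and 25 lower, against 30.6% and 31.6% of all named genes. In all 7 alternative fits 16 genes kept a lower call: Rps3, Rps3a, Rps4y2, Rps9, Rps15a, Rps24, Rpl6, Rpl7l1, Rpl12, Rpl22, Rpl24, Rpl26, Rpl27, Rpl27a, Rpl34 and Rpl35. The 34 chip A probe sets with several symbols, from which no gene is named, had a median of -0.59 (range -1.07 to -0.09), and 29 of them were lower and 0 higher. Bacterial spike-in control probe sets, which carry no rat transcript, also reached low ratios. Of 45 on chip A, 18 were below 1 on all 4 arrays and 7 lay at or below the member median, though their median was -0.06.

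**Figure D2:**
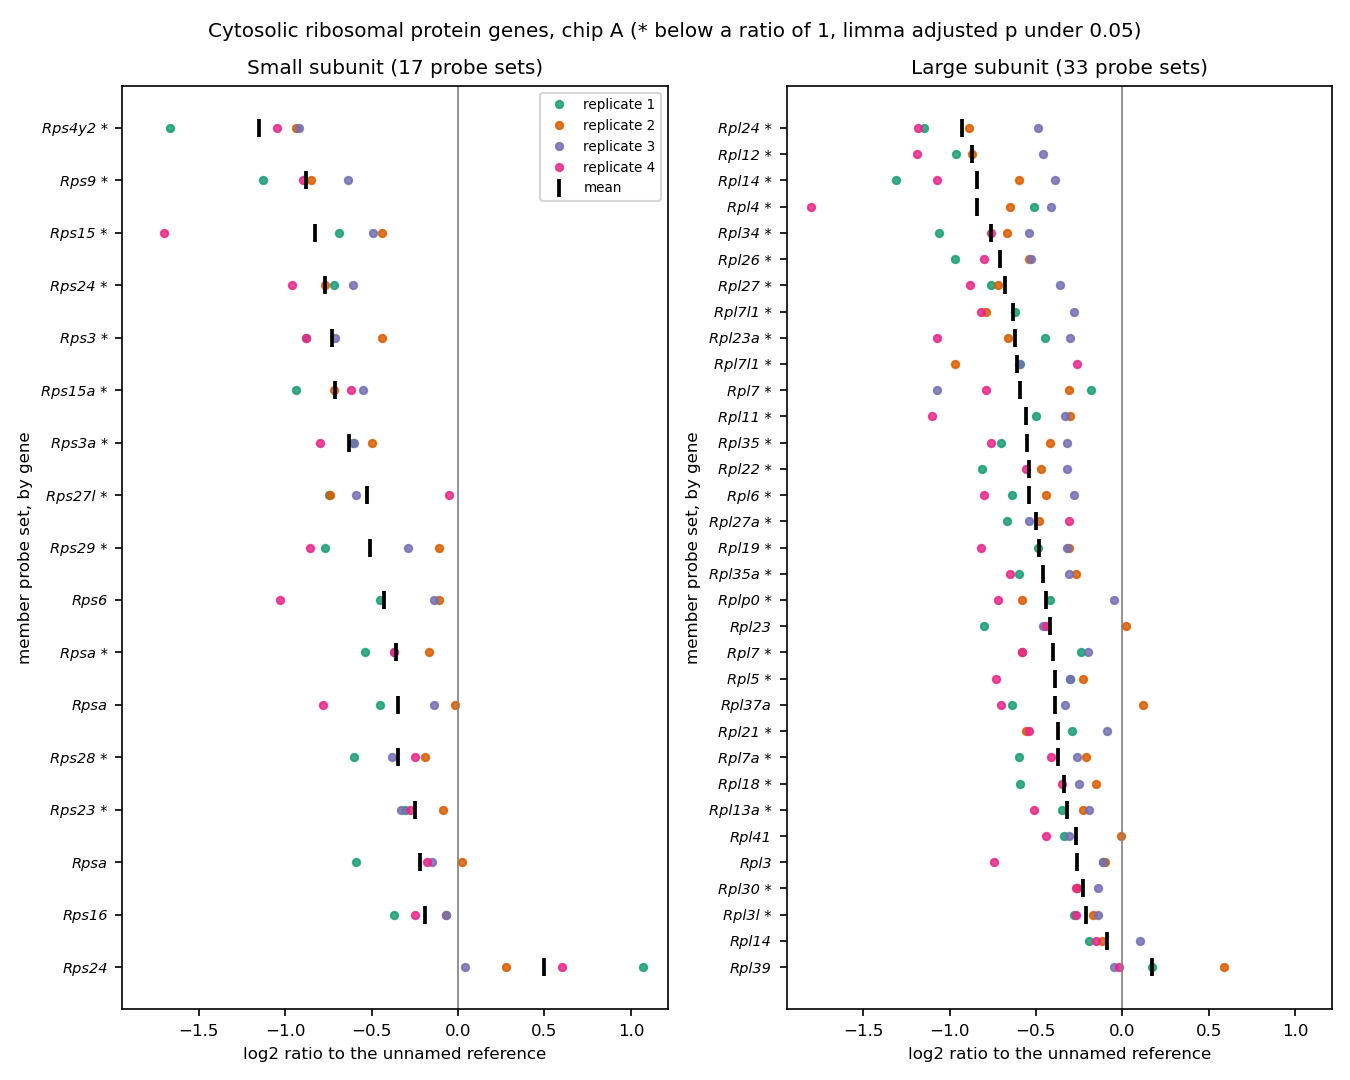
Log2 ratio (horizontal axis) of each of the 50 member probe sets on chip A, ordered by mean, for the small subunit (left, 17 probe sets) and the large subunit (right, 33 probe sets). Coloured points are the 4 replicates, black ticks are means and asterisks mark probe sets lower than a ratio of 1 in limma. Points of most genes lie left of 0, with the Rps24 probe set at 0.50 and Rpl39 at 0.17 as the means right of it.

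Small and large subunit genes did not separate. The median over small subunit genes was -0.65, -0.34, -0.43 and -0.71 in replicates 1 to 4, and that over large subunit genes was -0.59, -0.39, -0.32 and -0.69. The small minus large difference was -0.05, 0.05, -0.12 and -0.02 in the same order. It averaged -0.04 ± 0.07 (SD, n = 4), so the mean difference was smaller than its spread between replicates. It was 0.03 without paralogs and 0.02 with probe sets as the unit. By limma, lower calls were made for 12 of 14 small subunit genes (85.7%) and 25 of 30 large subunit genes (83.3%). No p-value was computed for this difference of scores.

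Among small subunit genes the lowest was Rps4y2, a paralog of the S4 gene, with ratios of 0.314, 0.520, 0.527 and 0.482 in replicates 1 to 4. All 4 were far under 1 and replicate 1 was lowest, giving a mean log2 ratio of -1.15 ± 0.35 (limma adjusted p = 0.00244). Rps9, whose protein sits by the mRNA entry site and affects decoding accuracy, had ratios of 0.457, 0.555, 0.643 and 0.536. Its 4 replicates lay close together at -0.88 ± 0.20 (adjusted p = 0.00142). Rps15, a protein of the subunit head needed in human cells for export of the small subunit precursor, had ratios of 0.621, 0.738, 0.712 and 0.307. Replicate 4 stood well below the others, so its mean of -0.83 ± 0.59 (adjusted p = 0.0384) had a wide error. The Rps15 call was lost with centring (0.0798) and without replicate 1 (0.0821) or replicate 3 (0.0642).

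Rps24, whose human counterpart is mutated in Diamond-Blackfan anaemia, had a pair of probe sets that differed by 1.27, more than any other member gene's. The lower probe set had ratios of 0.605, 0.586, 0.657 and 0.513, all low and even, with a mean of -0.77 ± 0.15 (limma adjusted p = 0.00126). The higher probe set had ratios of 2.10, 1.21, 1.03 and 1.51, all above 1, with a mean of 0.50 ± 0.45 that did not pass (0.081). Their values did not overlap on any array, and which Rps24 transcripts each detects was not tested.

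Rps6, the ribosomal protein phosphorylated by S6 kinases downstream of mTOR, had ratios of 0.734, 0.928, 0.906 and 0.489. All were below 1, but replicate 4 was far lower than replicates 2 and 3, and the mean of -0.43 ± 0.43 did not pass (limma adjusted p = 0.104). Rpsa, which encodes the small subunit protein also known as the laminin receptor precursor, had 3 probe sets with means of -0.36, -0.35 and -0.22. Of these, the one at -0.36 ± 0.15 passed (adjusted p = 0.0202), with ratios of 0.686, 0.890, 0.774 and 0.772, and the others did not (0.111 and 0.181). That call was lost with centring (0.0556) and without replicate 1, 3 or 4 (0.0616 to 0.0731). Rps16 had ratios of 0.776, 0.954, 0.950 and 0.841, a mean of -0.19 ± 0.14, and did not pass (0.123). Rps27l, a paralog of Rps27 known in human and mouse as a p53 target, had ratios of 0.593, 0.599, 0.665 and 0.968. Only replicate 4 lay near 1, and the mean of -0.53 ± 0.33 passed (0.0312). It did not pass with centring (0.0907) or without replicate 1, 2 or 3 (0.0889 to 0.0992). The other small subunit genes that were lower were Rps3, a protein of the mRNA entry channel, at -0.73, Rps15a at -0.71, Rps3a at -0.63, Rps29 at -0.51, Rps28 at -0.35 and Rps23, a protein of the decoding centre, at -0.25. The calls of Rps29 and Rps28 were kept in 3 of the 7 other fits and that of Rps23 in 2.

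Among large subunit genes the lowest was Rpl24, whose mutation in mice causes the Belly spot and tail phenotype. Its chip A ratios were 0.451, 0.540, 0.711 and 0.440, highest in replicate 3, with a mean of -0.93 ± 0.32 (limma adjusted p = 0.00397). On chip B another Rpl24 probe set had ratios of 0.616, 1.0, 0.663 and 0.653, low in 3 replicates and at the reference in replicate 2, with a mean of -0.48 ± 0.32 (0.0612). Rpl12, at the base of the P stalk, had ratios of 0.514, 0.546, 0.727 and 0.437 and a mean of -0.87 ± 0.31 (0.00443). Rplp0, the core of that stalk, had ratios of 0.746, 0.667, 0.969 and 0.609. It was nearer the reference, above all in replicate 3, at -0.44 ± 0.29 (0.0398). Rplp0 did not pass with centring (0.0974) or without replicate 1, 2 or 4 (0.1 to 0.124). Rplp1 and Rplp2 had no single-gene probe set.

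Rpl4, which lines the tunnel through which the new chain leaves, had ratios of 0.701, 0.637, 0.755 and 0.287. Replicate 4 was again far below the other 3, giving the largest SD among members, -0.84 ± 0.65 (limma adjusted p = 0.0472). With centring (0.0952) or without replicate 1, 2 or 3 (0.0647 to 0.0786) it did not pass. Rpl39, a small protein of the same tunnel, had ratios of 1.13, 1.502, 0.966 and 0.987, on both sides of 1, with a mean of 0.17 ± 0.29 (0.334). Rpl14 had a pair of probe sets at different levels: one with 0.403, 0.659, 0.765 and 0.475 (-0.84 ± 0.42, adjusted p = 0.0133) and one with 0.878, 0.923, 1.07 and 0.902 (-0.09 ± 0.13, 0.414). On every array the first lay below the second, by 0.75 on the mean log2 scale.

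Paralogs could be set beside their ordinary genes in a few cases. Rpl3, a protein of the peptidyl transferase centre, had ratios of 0.928, 0.936, 0.926 and 0.598, so 3 replicates lay just under 1 and replicate 4 was low (-0.26 ± 0.32, limma adjusted p = 0.182). Rpl3l, its paralog of heart and skeletal muscle, had 0.826, 0.891, 0.905 and 0.83, an even set at -0.21 ± 0.07 (0.0495), a call lost in 6 of the 7 other fits (0.0651 to 0.167). Rpl7 had probe sets at -0.59 ± 0.42 (0.0416) and -0.40 ± 0.21 (0.0259), calls lost by both with centring (0.112 and 0.0779) and without replicate 4 (0.134 and 0.0919), by the first without replicate 3 (0.0944) and by the second without replicate 2 (0.0818). Its paralog Rpl7l1 had probe sets at -0.63 ± 0.25 (0.00797) and -0.61 ± 0.29 (0.0139). The first Rpl7 probe set had ratios of 0.883, 0.807, 0.475 and 0.580, and the first Rpl7l1 probe set had 0.649, 0.579, 0.822 and 0.568, so the pair overlapped and was low in different replicates. Rpl27a had ratios of 0.627, 0.716, 0.689 and 0.807 on chip A, at -0.50 ± 0.15 (0.00638).

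The remaining large subunit genes had chip A means from -0.76 to -0.23. Rpl5 and Rpl11, which with 5S RNA form the particle that binds Mdm2, were lower at -0.39 and -0.56, with ratios of 0.604 to 0.852 and 0.465 to 0.810, calls kept in 2 and 4 of the 7 other fits. Also lower were Rpl34 at -0.76, Rpl26 at -0.71, Rpl27 at -0.68, Rpl23a, at the tunnel exit, at -0.62, Rpl35 at -0.55, Rpl6 and Rpl22 at -0.54 each, and Rpl19 at -0.48. Nearer the reference, and still lower in limma, were Rpl35a at -0.46, Rpl7a and Rpl21 at -0.37 each, Rpl18 at -0.34, Rpl13a at -0.32 and Rpl30 at -0.23. Of these Rpl35a kept its call in 5 of the 7 other fits, Rpl7a in 4, Rpl21, Rpl18 and Rpl13a in 3 each and Rpl30 in 1, and with centring all but Rpl35a lost it. Rpl30 had the smallest SD of the chip A members, with ratios of 0.833, 0.837, 0.907 and 0.828. Rpl23 at -0.42, Rpl37a at -0.39 and Rpl41 at -0.27 did not pass (adjusted p from 0.0656 to 0.104), and in Rpl23 and Rpl37a replicate 2 was just above 1, at 1.01 and 1.09.

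On chip B the 6 member probe sets lay nearer the reference and 0 passed limma in either direction, with 1 lower at an unadjusted p under 0.05, that of Rpl24. Over all tested chip B probe sets 27.1% were lower and 5.08% higher, and over all named chip B genes 32.9% and 4.92%. None of the 6 was below 1 on all 4 arrays, against 36.8% of tested chip B probe sets. Rpl28 had ratios of 0.847, 1.0, 0.388 and 0.917, low in replicate 3, with a mean of -0.43 ± 0.63 (adjusted p = 0.282). Rpl13a stayed within 0.966 to 1.02, at -0.02 ± 0.03 (0.78), where its chip A probe set lay at -0.32 ± 0.15 (0.028). The pseudogene and paralog symbols were close to 1 as well: Rps4x-ps1, a transcribed pseudogene, at -0.13 ± 0.19, Rpl27al2 at -0.06 ± 0.16 and Rpl39l1 at -0.02 ± 0.10 (adjusted p from 0.319 to 0.84). With each array centred on its median, Rpl13a, Rpl27al2 and Rpl39l1 lay above 0, at 0.09, 0.04 and 0.09. Rpl24 and Rpl28 in replicate 2, and all 3 pseudogene and paralog symbols in replicate 4, had a ratio of 1 to the decimals given. Ratios cannot tell whether such a probe set detected a transcript.

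Replicates 2 and 3 held the higher values and replicates 1 and 4 the lower ones. Member genes had medians of -0.60, -0.39, -0.32 and -0.69 in replicates 1 to 4, a mean of -0.50 ± 0.18 (SD, n = 4). Replicate 4 was lowest for 24 and replicate 1 for 19 of the 50 chip A probe sets, or 48% and 38%, against 35.8% and 25.9% of all tested probe sets. Replicate 3 was highest for 23 and replicate 2 for 22, or 46% and 44%, against 36.1% and 25.4%. Deviations from each probe set's own mean had medians of -0.09, 0.14, 0.16 and -0.17 over members, against -0.03, 0.03, 0.05 and -0.05 over all tested probe sets. The median SD of a member probe set over replicates was 0.22, against 0.21 for all tested probe sets. It was 0.18 after the members' own median was subtracted from each array, with 37 of 50 SDs smaller. Some fall is built in, since that median came from the same probe sets, and no other set was treated in this way. Within an array the median member stood at percentile 22.7, 31.2, 32.7 and 18 of all tested probe sets in replicates 1 to 4. The order of replicates has no labelled cause and its part in the results was not tested beyond leaving out each replicate.

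**Figure D3:**
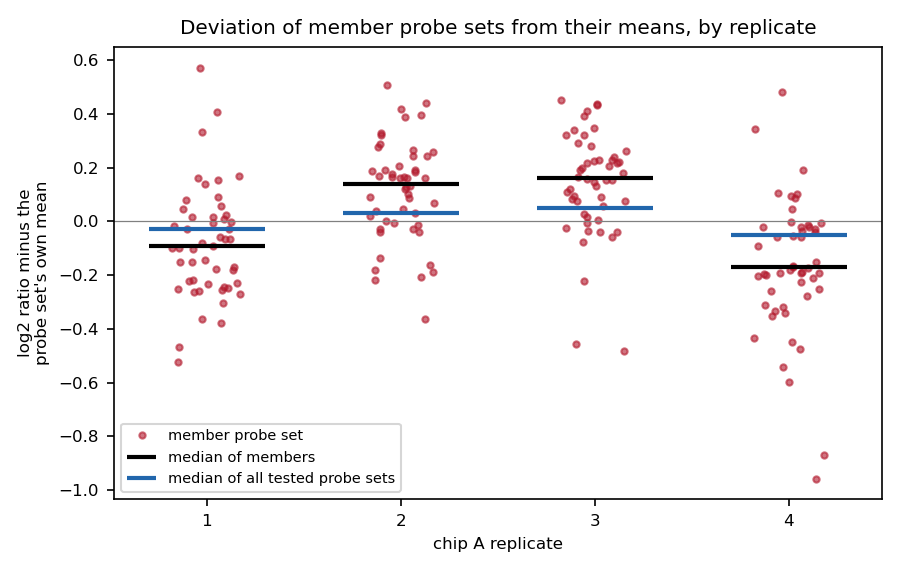
Deviation of each of the 50 member probe sets from its own mean log2 ratio (vertical axis) in the 4 chip A replicates (horizontal axis). Red points are probe sets, black bars the member medians of -0.09, 0.14, 0.16 and -0.17, and blue bars the medians of all tested probe sets of -0.03, 0.03, 0.05 and -0.05.

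Lower ratios extended to other genes of protein synthesis. Mitochondrial ribosomal proteins (Mrpl and Mrps), which serve the separate ribosome of mitochondria, had 56 of 71 chip A genes lower (78.9%) and 0 higher, with a median of -0.54 ± 0.13 (SD, n = 4). On chip B they had 12 of 19 lower. After centring, 41 of 71 mitochondrial and 20 of 44 cytosolic ribosomal protein genes were lower on chip A, so low ratios were found for the proteins of both ribosomes. Centring also left 4 of 9 elongation factor, 14 of 34 initiation factor, 15 of 48 biogenesis and 3 of 8 other TOP mRNA genes lower. These are fewer than the counts before centring given with each list here. Over all named chip A genes 27.1% were lower after centring, and the biogenesis share lay close to that. Among the mitochondrial genes Mrps26 had a probe set at -1.50 ± 0.06 (limma adjusted p = 0.000102) and another at -0.20 ± 0.34 (0.336). Mrpl50 had probe sets at -1.40 ± 0.61 (0.0073) and -0.78 ± 0.26 (0.00398), while Mrps14 at -0.30 ± 0.12 (0.027) and a probe set of Mrpl51 at -0.23 ± 0.08 (0.0421) were the least low that passed. The chip B probe set of Mrps14 lay further down, at -0.49 ± 0.21 (0.0191). Translation elongation factors had 8 of 9 chip A genes with a lower probe set and 1 with a higher one, the same gene, Eef2k, a kinase that inhibits elongation, whose probe sets ran from -1.15 ± 0.06 (0.000145) to 1.44 ± 0.46 (0.00249). Eef1e1 at -0.81 ± 0.13 (0.000803) was the next lowest on chip A, and on chip B Eef1a2, the neuron and muscle form of the factor, stood at -1.90 ± 0.02 (5.93e-05), where its chip A probe set lay at 0.00 ± 0.08 (0.988). Eef1a1, which brings aminoacyl-tRNA to the ribosome, had probe sets at -0.26 ± 0.06 (0.0255) and -0.25 ± 0.13 (0.0498).

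Initiation factors had 21 of 34 chip A genes lower (61.8%) and 0 higher, with Eif4e2 at -0.99 ± 0.53 (limma adjusted p = 0.0151) and Eif3m at -0.92 ± 0.18 (0.000973) lowest, and with Eif4g3 on chip B at -2.19 ± 0.01 (5.93e-05). The Eif4g3 probe set on chip A was at -0.13 ± 0.22 (0.354). On chip B the SDs of Eif4g3 and Eef1a2, 0.01 and 0.02, were unusually small. The SDs of all tested chip B probe sets had a median of 0.19 and a lower quartile of 0.09. So small a spread lowers the p-values, and its cause was not tested. The least low that passed were Eif4g2 at -0.26 ± 0.11 (0.0377) and Eif4a2 at -0.26 ± 0.12 (0.0418). Ribosome biogenesis genes had 23 of 48 lower (47.9%) and 1 higher. The nucleolar protein gene Nop16 at -1.03 ± 0.20 (0.000814) and a probe set of the RNA polymerase I factor gene Ubtf at -0.98 ± 0.06 (0.000223) were lowest, though other Ubtf probe sets lay at up to -0.01 ± 0.07 (0.888). Dkc1, the pseudouridine synthase of the snoRNA particles, was higher at 0.29 ± 0.08 (0.0217), and Imp4 was the least low that passed, at -0.25 ± 0.08 (0.0354). On chip B another Imp4 probe set lay further down, at -0.65 ± 0.21 (0.00638). Of the other ribosome components, Rack1, a scaffold on the head of the small subunit, had ratios of 0.774, 0.845, 0.758 and 0.773 and was lower at -0.35 ± 0.07 (0.0103), while Fau had no single-gene probe set. Other genes with TOP mRNAs had 6 of 8 lower on chip A, with Naca at -0.88 ± 0.29 (0.00358) and Nap1l1 at -0.80 ± 0.22 (0.00255) lowest. The least low Nap1l1 probe set lay at -0.21 ± 0.28 (0.242). This list shares Eef1a1, Eef2 and Rack1, all lower, with genes counted above.

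Lists nearer the background of 34.7% were the aminoacyl-tRNA synthetases, with 6 of 19 chip A genes lower (31.6%) and a median of -0.20 ± 0.17. Mars1 on chip B at -0.88 ± 0.07 (limma adjusted p = 0.000245), with a chip A probe set at 0.31 ± 0.27 (0.0931), and Nars1 on chip A at -0.67 ± 0.30 (0.0108) were the lowest that passed, and Farsb at -0.31 and Hars1 on chip B at -0.21 the least low. The chip A probe set of Hars1 lay further down, at -0.50 ± 0.18 (0.00893), and the chip B probe set of Farsb at -0.08 ± 0.07 (0.293). The mTOR and RPS6 kinase list had 5 of 14 lower (35.7%) and a median of 0.02 ± 0.13. Its lowest genes were Akt1s1, an mTORC1 inhibitor, at -1.14 ± 0.10 (limma adjusted p = 0.000196), and Pdcd4, an inhibitor of translation initiation, at -0.82 ± 0.07 (0.000444) on chip A and at -1.14 ± 0.49 (0.0137) in its lowest chip B probe set. Rheb, the GTPase that activates mTORC1, at -0.38 ± 0.11 (0.0108), and another Akt1s1 probe set at -0.34 ± 0.22 (0.0485), were the least low that passed. Another Rheb probe set lay at -0.03 ± 0.05 (0.704), and the least low Pdcd4 probe set on chip B at -0.07 ± 0.10 (0.386).

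**Figure D4:**
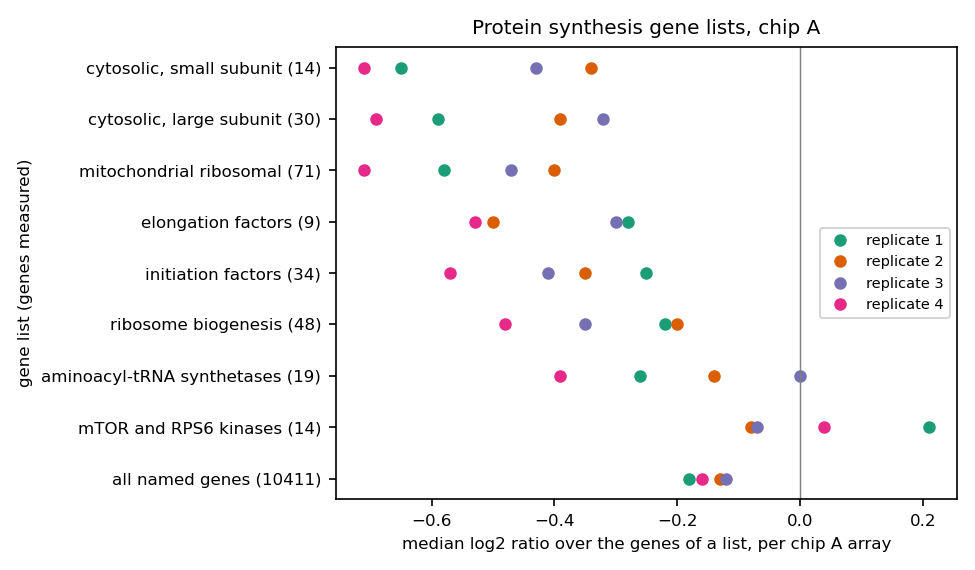
Median log2 ratio over the genes of each list (horizontal axis) on the 4 chip A arrays, coloured by replicate, for small and large subunit genes, 6 related lists and all 10411 named genes, with the number of genes measured in brackets. Both subunits and the mitochondrial ribosomal list lie below -0.3 on every array, and the medians of all named genes lie between -0.18 and -0.12.

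Marker genes of the sorted cells were checked by the same ratios. Over all named chip A genes 34.7% were lower and 9.91% higher. The corresponding chip B shares were 32.9% and 4.92%. Of the oligodendrocyte lineage markers on chip A, 1 of 4 was higher (Pdgfra). The chip B markers had 0 of 2 higher and 1 lower, Olig2, through a probe set at -0.43 ± 0.12 (limma adjusted p = 0.00624). Its other chip B probe set lay at -0.03 ± 0.03 (0.608). Myelin markers had 0 of 6 higher and 1 lower (Cldn11) on chip A. Another Cldn11 probe set lay at 0.16 ± 0.15 (limma adjusted p = 0.177), with all 4 ratios above 1. With centring 2 of 6 were higher, Mag (0.0466) and Cldn11 through that probe set (0.0492). The lower Cldn11 call was kept. Astrocyte markers had 6 of 6 higher, 1 of which (Slc1a3) also had a lower probe set, with a median of 1.40 ± 0.27, and neuron markers 3 of 5 higher, 1 of which (Tubb3) also had a lower probe set, with a median of 0.23 ± 0.18. On chip B the 1 neuron marker measured, Syt1, was lower at -0.45 ± 0.03 (limma adjusted p = 0.00127). Microglia markers had 0 of 6 higher and 2 lower (33.3%), close to the share over all named genes. Both of these calls were lost with centring. Endothelial and erythroid markers had 0 called. Summarised by array, astrocyte marker medians were 1.60, 1.1, 1.65 and 1.24 in replicates 1 to 4, which is not the order of the ribosomal protein medians. Microglia marker medians were -0.54, -0.55, -0.02 and -0.68, lowest in replicate 4 and highest in replicate 3 as for the ribosomal protein genes, with replicate 2 out of that order. The part of other cell types in the ribosomal protein ratios was not tested. Ratios cannot show whether a marker was absent.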

How the data were processed

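RNA was labelled with biotin by Affymetrix's small-sample protocol, per the labels' protocols. RMA is named, per the submitters' processing notes, without a version. What the authors deposited is a linear ratio per probe set to an unnamed reference, with array medians a little under 1. The reference, any floor and the genome build are not given in the sources used here. Values were analysed as log2 ratios. On each array type 57 control probe sets were left out, which left 15866 (chip A) and 15276 (chip B). Gene names came from the platform annotation, with 12783 and 7564 single-symbol probe sets. Of the member probe sets, 2 on chip A had gene IDs that were not in the RefSeq table (GRCr8), and no symbol changed.

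Each probe set was tested with limma 3.58.1 in R 4.3.3 (intercept, eBayes, two-sided against a ratio of 1), with Benjamini-Hochberg adjustment over an array type at 0.05, and the code was tested on simulated data. Array types were fitted separately. The prior carried 2.31 degrees of freedom on chip A and 1.52 on chip B. Gene values in medians are means of a gene's probe sets, and a gene counted as called if any probe set was. The number of arrays, 4 of each type, limits precision. Members and lists were chosen with earlier results of these data known. Probe sets described with replicate values were, per array type, the 6 highest, the 6 lowest and the 4 with the largest SD, genes with probe sets over 1 apart, paralogs with their ordinary genes, Rpsa, the stalk proteins, Rack1 and Fau. Rpl30, Rpl5, Rpl11, Rpl23 and Rpl37a were given replicate values after theirs were seen. In related lists the 2 lowest and 2 highest genes past the test were named, with Eef1e1, Eif3m and the chip A probe set of Pdcd4 added as next lowest. Alternatives were array centring, a trended robust prior, leaving out each replicate, log2(ratio + 0.1), other probe set rules and core genes only. The 34 several-symbol probe sets were added after the data were seen.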

Additional observations from a re-analysis of the deposited data

Results flagged for a closer look

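In 4 replicates, a value standing far from the other 3 for its range (by Dixon's gap over range) was seen in 3 of 35 results checked, where chance gives about 1 in 20. Rpl3 on chip A had ratios of 0.928, 0.936, 0.926 and 0.598, with replicate 4 apart (0.976). Rpl24 on chip B had 0.616, 1.0, 0.663 and 0.653, with replicate 2 apart at exactly the reference (0.848). Without that replicate Rpl24 on chip B lay at -0.64 and passed limma (adjusted p = 0.00484). The chip B median over 6 member genes was -0.20, 0.00, 0.01 and -0.01, with replicate 1 apart (0.906).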

How the results depend on the processing

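The chip A member median of -0.50 kept its sign in every setting run, from -0.38 with array centring to -0.59 for probe sets with several symbols, and without any 1 replicate it ran from -0.56 to -0.44. The count of 37 lower member genes fell to 20 with array centring and ran from 19 (without replicate 1) and 22 (without replicate 4) to 31 (without replicate 2) with a replicate left out. The centred value differs by construction, since a lower level is taken as 0. The chip A small minus large difference ran from -0.06 to 0.03 and the median SD from 0.20 to 0.25. On chip B the member median of -0.05 was 0.06 with centring and -0.24 with core genes only, and without a replicate ran from -0.07 to 0.00. The chip B count of lower genes, 0, was 1 with a trended, robust prior and 0 to 1 with a replicate left out, in each case Rpl24. Signs turned, without any call, with centring for the higher Rpl14 probe set (0.03) and for Rpl13a (0.09), Rpl27al2 (0.04) and Rpl39l1 (0.09) on chip B, and for Rpl39l1 without replicate 1 (0.03) and Rpl27al2 without replicate 2 (0.01), while without replicate 3 Rpl27al2 lay at -0.12. The 31 probe sets described individually include some with no call to lose, among them Rps6, Rpl3, Rps16, Rpl39 and all on chip B. Out of the fewer that were called, 8 lost their call with centring and 5 or 6 with a replicate left out. With the trended, robust prior 1 call was lost, and log2(ratio + 0.1) changed none. The cause was not tested. Signal over background is unknown in ratios, so dim probe sets could not be set aside. No paired analysis was possible because the groups that share replicate numbers are the array types, which are not conditions, and 0 member probe sets lay on both.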
